A study of Mus musculus with 4 samples.

Results

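The genes described here are 9 receptors that guide leukocyte migration: Ccr1, Ccr2, Ccr6, Ccr7, Cx3cr1, Cxcr4, Cxcr5, Gpr183 and S1pr1. They were taken from a named list, and a Runx3 peak was assigned to a receptor gene when its centre lay in the gene body or within 50 kb of it on mm9 (GENCODE M1 annotation). The rule gave 43 of the 15121 Runx3 peaks in the deposited list, and no peak fell to more than 1 receptor. Runx3 ChIP-seq was done on CD11chiMHCII+CD4+ splenic DC sorted from about 15 mice, with 2 Runx3 IP samples from an in-house polyclonal antibody and 2 input samples of fragmented whole cell extract chromatin. The mice were C57BL/6 by the labels, except that the label of input replicate 2 reads C57BL/7, and the paper describes the cells as WT. No knockout cells and no treatment were part of the ChIP-seq. MACS2 was run once on both IP samples against both input samples, so no peak has a value per replicate, no spread between replicates can be given, and nothing below was tested between groups. The depth of each library was not analysed here. Since peaks do not measure RNA, neither expression of the receptors nor the labelled cell type could be checked.

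All of these receptors are G protein-coupled receptors that cells use to read gradients of chemokines or lipids. Chemokine receptors steer DC and their precursors from blood into tissue and between zones of lymphoid organs. Gpr183 binds oxysterols and is known for placing CD4+ DC at the bridging channels of the spleen, and S1pr1 senses sphingosine 1-phosphate and directs the exit of lymphocytes into blood and lymph. RUNX proteins bind DNA at the hexamer TGTGGT, read on either strand.

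Of the 9 receptor genes, 8 had at least 1 Runx3 peak, against 62.6% of the 22367 protein-coding genes under the same rule. S1pr1 was the exception. Each of the 8 had 4 or more peaks, which 18.8% of protein-coding genes had. That count rests on the limit of 50 kb, since within 10 kb of the gene body only Ccr6 had 4. Among the peaks within 50 kb, only Ccr6, Cxcr4 and Gpr183 had 4 or more nearest to a TSS of their own. Gpr183 had 11 peaks, Ccr6 had 7 and Ccr2 had 5, and Ccr1, Ccr7, Cx3cr1, Cxcr4 and Cxcr5 had 4 each. The median was 4 peaks per receptor and 1 peak per protein-coding gene. The highest MACS2 peak scores, on a scale the authors do not state, were 89.22 at Ccr6 and 58.54 at Cx3cr1, and Cxcr5 had the lowest set, with no score above 9.16.

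The strongest peak of each of the 8 bound receptors is shown because most of the results below turn on these regions. Each is mm9 sequence, 5′ to 3′ on the strand of the gene, and capitals mark TGTGGT or its complement ACCACA. Stretches are 200 bp around the peak centre. For Ccr6 and Cxcr4 the nearest hexamer lay outside these, and 300 bp are given instead, which still hold the peak centre but are shifted from it towards the hexamer. Near an exon of Ccr2 only the 30 bp around the hexamer are given.
Ccr6 strongest peak, chr17:8426699-8426998, plus strand: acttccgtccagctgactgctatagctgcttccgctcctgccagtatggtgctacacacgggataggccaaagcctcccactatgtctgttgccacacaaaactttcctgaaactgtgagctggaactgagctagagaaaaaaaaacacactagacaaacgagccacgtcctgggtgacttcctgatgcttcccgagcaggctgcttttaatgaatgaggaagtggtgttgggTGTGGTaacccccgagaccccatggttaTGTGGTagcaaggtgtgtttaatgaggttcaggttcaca
Cx3cr1 strongest peak, chr9:119964019-119964218, minus strand: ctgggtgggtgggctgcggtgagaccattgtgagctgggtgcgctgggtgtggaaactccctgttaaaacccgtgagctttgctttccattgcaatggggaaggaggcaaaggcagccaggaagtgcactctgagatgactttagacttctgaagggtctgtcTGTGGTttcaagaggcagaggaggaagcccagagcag
Ccr7 strongest peak, chr11:99050614-99050813, minus strand: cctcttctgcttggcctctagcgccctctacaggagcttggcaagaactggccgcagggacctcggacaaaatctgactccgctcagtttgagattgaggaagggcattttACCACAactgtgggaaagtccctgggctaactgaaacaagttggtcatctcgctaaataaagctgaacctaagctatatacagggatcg
Gpr183 strongest peak, chr14:122333875-122334074, minus strand: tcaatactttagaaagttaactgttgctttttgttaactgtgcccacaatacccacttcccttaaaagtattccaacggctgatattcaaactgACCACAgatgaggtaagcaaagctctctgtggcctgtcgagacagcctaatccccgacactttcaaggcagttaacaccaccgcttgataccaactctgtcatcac
Ccr2 strongest peak, chr9:124027466-124027495, plus strand: ttagtcttggttTGTGGTctgcctctagat
Ccr1 strongest peak, chr9:123849614-123849813, minus strand: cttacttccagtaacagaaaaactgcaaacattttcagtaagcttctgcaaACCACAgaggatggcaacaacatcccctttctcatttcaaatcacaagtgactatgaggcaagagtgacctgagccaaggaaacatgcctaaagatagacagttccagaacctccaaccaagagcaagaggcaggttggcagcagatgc
Cxcr4 strongest peak, chr1:130511410-130511709, minus strand: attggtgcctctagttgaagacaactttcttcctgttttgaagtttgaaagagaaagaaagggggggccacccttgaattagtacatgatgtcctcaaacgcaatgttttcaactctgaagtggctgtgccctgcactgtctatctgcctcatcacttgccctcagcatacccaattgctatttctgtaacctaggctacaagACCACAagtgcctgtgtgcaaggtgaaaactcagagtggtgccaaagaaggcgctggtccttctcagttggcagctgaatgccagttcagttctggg
Cxcr5 strongest peak, chr9:44375844-44376043, minus strand: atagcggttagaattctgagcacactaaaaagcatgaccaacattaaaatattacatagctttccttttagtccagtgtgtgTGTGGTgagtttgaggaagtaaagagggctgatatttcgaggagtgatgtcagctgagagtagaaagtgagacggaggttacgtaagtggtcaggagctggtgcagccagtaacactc

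Peaks close to the TSS of a receptor form the second set. The bases upstream of exon 1 that lie in the peak, up to 250 bp, are shown to compare where the hexamer sits.
Ccr1 upstream of the TSS, chr9:123883526-123883690, minus strand: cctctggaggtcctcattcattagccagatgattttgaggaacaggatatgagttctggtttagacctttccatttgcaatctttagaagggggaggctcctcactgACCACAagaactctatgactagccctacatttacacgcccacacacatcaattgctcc
Cx3cr1 upstream of the TSS, chr9:119977401-119977650, minus strand: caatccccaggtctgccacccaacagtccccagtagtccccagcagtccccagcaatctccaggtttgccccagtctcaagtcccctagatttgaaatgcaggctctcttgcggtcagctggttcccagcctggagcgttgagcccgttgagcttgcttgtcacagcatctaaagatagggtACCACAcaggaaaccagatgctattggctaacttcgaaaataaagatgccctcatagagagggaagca
Ccr7 upstream of the TSS, chr11:99016392-99016606, minus strand: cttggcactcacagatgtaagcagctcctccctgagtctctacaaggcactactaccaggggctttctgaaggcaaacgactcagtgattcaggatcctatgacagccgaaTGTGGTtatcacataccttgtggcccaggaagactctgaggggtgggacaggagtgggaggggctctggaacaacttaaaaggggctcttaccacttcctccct
Gpr183 upstream of the TSS, chr14:122364416-122364543, minus strand: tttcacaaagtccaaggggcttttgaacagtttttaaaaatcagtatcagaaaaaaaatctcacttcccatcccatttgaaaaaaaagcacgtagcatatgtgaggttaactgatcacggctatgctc
The nearest base of the hexamer was 53 bp upstream of the TSS in Ccr1, 63 bp in Cx3cr1 and 99 bp in Ccr7. The Gpr183 stretch held no TGTGGT on either strand.

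**Figure D1:**
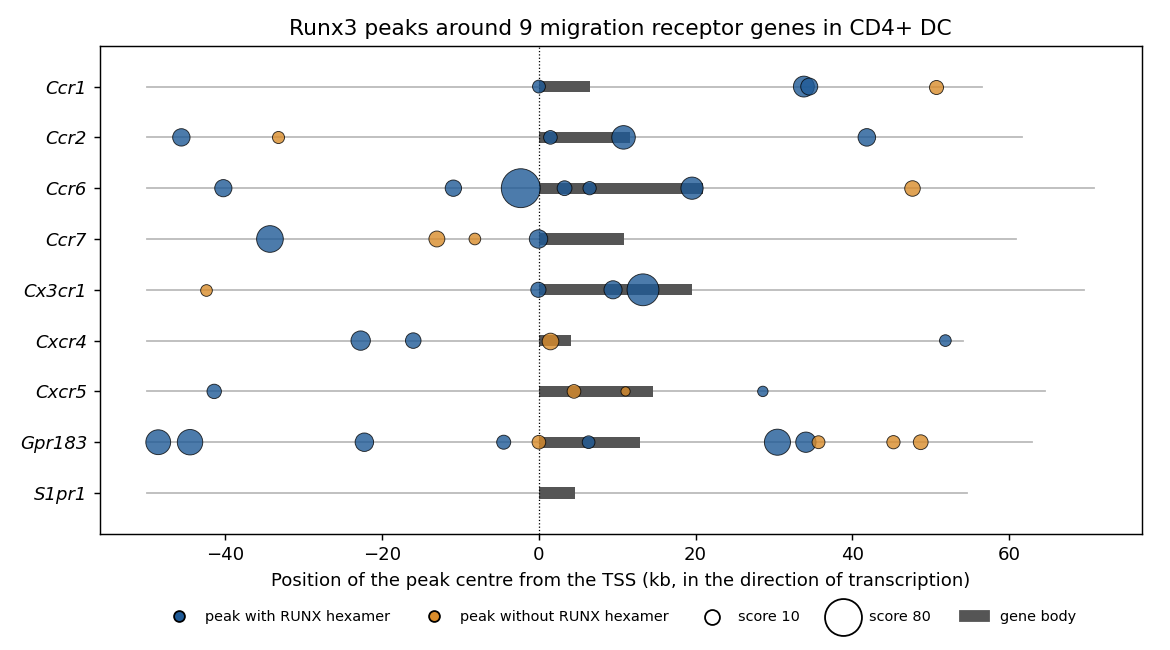
Position of each Runx3 peak centre (kb from the TSS, in the direction of transcription) at the 9 receptor genes, with point area rising with the MACS2 score, blue for peaks with and orange for those without the RUNX hexamer, dark grey bars for gene bodies and grey lines for the 50 kb searched on each side. The strongest peak, at Ccr6, lies 2315 bp upstream of the TSS, 11 peaks surround Gpr183, and no peak is drawn at S1pr1.

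Ccr2, Ccr1 and Cx3cr1 are the receptors of this list best known from monocytes and cells derived from them. Ccr2, the receptor for Ccl2 that draws monocytes out of bone marrow, lies on chromosome 9 from 124016689 to 124028296 on the plus strand. Its 5 peaks scored 14.96, 5.36, 7.84, 30.41 and 15.34 in order along the gene's direction. The strongest, chr9:124027291-124027689, was at the percentile 82.6 of all peaks and centred 10801 bp downstream of the TSS, in an intron of 1 of the Ccr2 transcripts. This position is downstream of the Ccr2 coding exon. The peak nearest to a Ccr2 TSS, chr9:124017970-124018353, scored 7.84 and was centred in the untranslated part of exon 1 of the longest transcript, 1239 bp from a TSS. Of the remaining peaks, 2 lay 45629 and 33345 bp upstream of the TSS and 1 lay downstream of the gene.

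Ccr1, a receptor for Ccl3 and Ccl5, lies on chromosome 9 from 123876959 to 123883525 on the minus strand. The peak over its TSS, chr9:123883345-123883690, was centred 8 bp into exon 1 and scored 6.57, below the list median of 12.14. Downstream of the gene 2 adjacent peaks, chr9:123849505-123849921 and chr9:123848772-123849272, scored 23.19 and 14.2, and a further peak 50698 bp from the TSS scored 8.49. The annotated TSS nearest to these 3 downstream peaks was that of Gm4694, a predicted gene. Only the weak peak over the TSS was therefore nearest to Ccr1 itself.

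Cx3cr1, the receptor for the membrane-bound chemokine Cx3cl1, lies on chromosome 9 from 119957811 to 119977400 on the minus strand. The scores were 58.54 and 16.53 for the peaks in intron 1 and 10.53 at the promoter, where the peak was centred 64 bp upstream of the TSS. Each of these 3 peaks held a single TGTGGT, which in the promoter peak lay 1 bp from the peak centre and in the strongest peak 66 bp from it. The fourth peak, chr9:120019701-120019984, scored 4.79, held no TGTGGT and was centred 300 bp from a TSS of Slc25a38, a gene for a mitochondrial carrier. The strongest Cx3cr1 peak was at the percentile 95.2 of the list, and 12.8% of the 13997 protein-coding genes with a peak had one that scored as high.

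Ccr7, Ccr6, Cxcr5 and Cxcr4 are receptors that position cells within or between lymphoid tissues. Ccr7, which guides DC along Ccl19 and Ccl21 to the T cell zone, lies on chromosome 11 from 99005510 to 99016391 on the minus strand. All 4 of its peaks lay upstream of the TSS and none in the gene body. The scores were 17.32 at 47 bp, 4.79 at 8171 bp, 11.96 at 13021 bp and 40.1 at 34322 bp from the TSS. The promoter peak and the most distant peak held TGTGGT, and the pair between them held none of the motifs searched. The most distant peak, chr11:99050410-99051016, was at the percentile 89.2 and lay 24044 bp from the TSS of Smarce1, a gene of a chromatin remodelling complex. The Ccr7 promoter peak had the highest score among the peaks within 1 kb of a receptor TSS.

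Ccr6, the receptor for Ccl20, lies on chromosome 17 from 8429077 to 8449992 on the plus strand and has 4 annotated TSS. Its strongest peak, chr17:8426364-8427161, was 798 bp wide, scored 89.22 and ranked 244 in the list. A peak scoring as high was found at 4.57% of the protein-coding genes with a peak. This peak held TGTGGT at 2 places, beginning at 8426932 and 8426960, which were 172 and 200 bp from the peak centre on the side of the gene. Within the gene the peak chr17:8448358-8448879 scored 26.73 and was centred in the untranslated part of exon 5, with TGTGGT at 2 places. Another, chr17:8435420-8435679, scored 7.2 and was centred 158 bp from an internal TSS. The remaining peak in the gene scored 9.86 and a peak 10915 bp upstream scored 12.83. Thus 5 of the 7 peaks were nearest to a TSS of Ccr6, and all of these held TGTGGT. The others were nearest to Fgfr1op, where the peak scored 14.58 and held TGTGGT at 2 places, and to Brp44l, where the peak was 12 bp from the TSS, scored 11.24 and held no TGTGGT.

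Cxcr4, the receptor for Cxcl12 that retains cells in bone marrow, lies on chromosome 1 from 130484776 to 130488870 on the minus strand. It had no other protein-coding TSS in its window, and all 4 peaks were nearest to Cxcr4. The scores were 19.43 at 22745 bp upstream, 11.24 at 16035 bp upstream, 13.43 in intron 1 and 4.79 at 51874 bp downstream. The strongest, chr1:130511222-130512008, was 787 bp wide and held TGTGGT at 4 places, the most of any receptor peak. The intron 1 peak, 1381 bp from the TSS, was the only receptor peak at or above the list median score that held no TGTGGT. No Cxcr4 peak reached the upper quartile of the list, a score of 23.19.

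Cxcr5, the receptor for Cxcl13 in B cell follicles, lies on chromosome 9 from 44319871 to 44334504 on the minus strand. Its peaks scored 9.16 at 41439 bp upstream, 7.84 and 1.62 in intron 1, and 3.07 at 28579 bp downstream. All 4 were below the list median of 12.14, and the peak scoring 1.62, chr9:44323200-44323688, ranked 15108 of 15121. The peaks in intron 1 held no TGTGGT. The others held 1 each, and lay nearest to Ddx6 and Bcl9l. Of the protein-coding genes with a peak, 85.7% had one that scored at least as high as the best Cxcr5 peak.

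Gpr183 lies on chromosome 14 from 122351553 to 122364415 on the minus strand, within intron 4 of Ubac2, which runs on the opposite strand and also holds Gpr18, another G protein-coupled receptor gene. All of the 11 peaks were centred inside Ubac2. At least 11 peaks were found at 0.46% of protein-coding genes, and at least as many peaks per 100 kb of window, 9.75, at 0.228%. Upstream of the gene the scores were 34.2, 36.14, 17.32 and 8.49, at 48581, 44523, 22274 and 4492 bp from the TSS. The peak over the TSS, chr14:122364289-122364543, scored 7.84, and the peak in the gene body scored 6.34 with TGTGGT at 3 places. Downstream the scores were 38.11, 21.71, 6.57, 7.2 and 9.84, at 30441 to 48726 bp from the TSS. Thus the 4 highest scores lay 30441 bp or more from the Gpr183 TSS, on both sides of it, while the peaks within 5 kb of it scored at most 8.49. By nearest TSS 4 of the peaks belonged to Gpr183, 5 to Gpr18 and 2 to Timm8a2, so that the count for Gpr183 rests on a region it shares with these genes.

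S1pr1 lies on chromosome 3 from 115413351 to 115417973 on the minus strand. No peak was called in the gene or within 50 kb of it. The nearest, chr3:115502153-115502874, was centred 84540 bp upstream of an S1pr1 TSS, scored 28.55 and held TGTGGT at 2 places, and no other protein-coding TSS was nearer to it. That no peak was called at S1pr1 holds for the depth of these libraries. At the other receptors the outermost peaks inside the limit lay 34.3 to 48.6 kb from the gene body, and the next peaks beyond it 53.1 kb from the body at Cxcr5 and up to 133 kb at Ccr2.

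**Figure D2:**
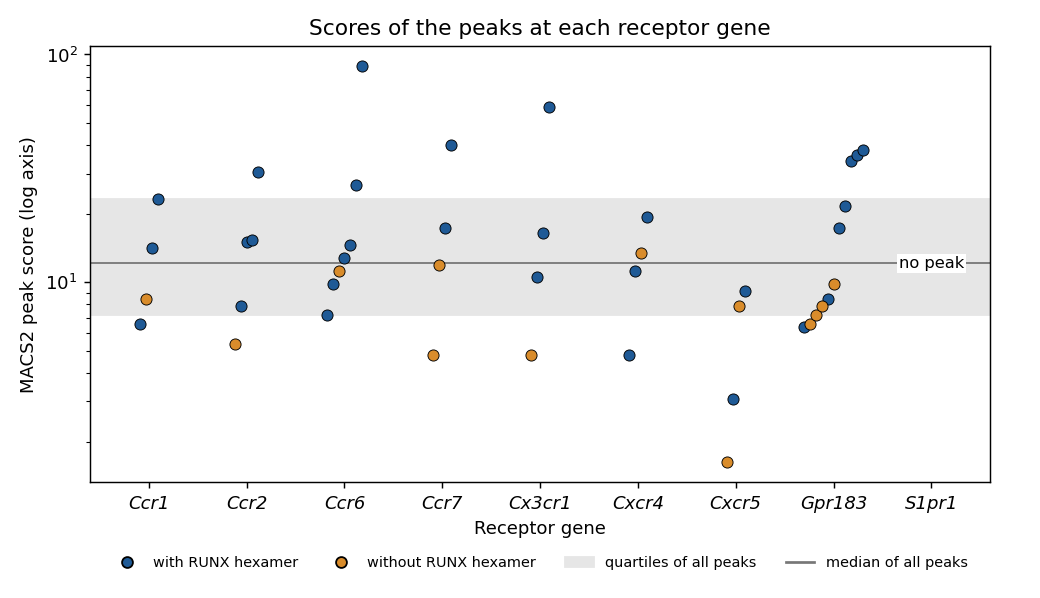
MACS2 score (log axis) of each of the 43 peaks by receptor gene, with blue for peaks with and orange for those without the RUNX hexamer, grey for the quartiles of all peaks and a line for their median of 12.14. Ccr6 and Cx3cr1 hold the highest scores, all Cxcr5 peaks lie below the median, and S1pr1 has no peak.

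By place, 12 peaks lay in a receptor gene body, 19 upstream and 12 downstream of one. A peak in the body was found for 7 of the 9 receptors and for 23.2% of protein-coding genes. A peak within 1 kb of one of its TSS was found for 5 receptors, Ccr1, Ccr6, Ccr7, Cx3cr1 and Gpr183, and for 24.9% of protein-coding genes. These 5 peaks scored 6.57 to 17.32, and 4 of them held TGTGGT. At none of these receptors was the TSS peak the strongest. Over the 8 bound receptors the strongest peak lay between 2315 bp from the TSS, at Ccr6, and 41439 bp, at Cxcr5. A peak in the upper quartile of scores was found for 6 receptors, all but Cxcr4, Cxcr5 and S1pr1, and for 31.0% of protein-coding genes.

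Counts near the receptors also depend on what else lies there. The nearest protein-coding TSS was that of the receptor itself for 24 of the 43 peaks (55.8%), and of 1 of 11 other genes for the remaining 19. The median score was 10.2 for the former and 14.6 for the latter. Within 1 kb of any protein-coding TSS lay 8 of the receptor peaks (18.6%), against 36.3% of all peaks. Of these 8 peaks, 3 were at Brp44l, Slc25a38 and Gpr18, and none of these held TGTGGT. The windows of the receptors were 112 kb long in the median and held 1 other protein-coding TSS, against 115 kb and 2 for all protein-coding genes. The density of peaks was 3.75 per 100 kb in the median of the receptors and 0.88 in that of all protein-coding genes.

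**Figure D3:**
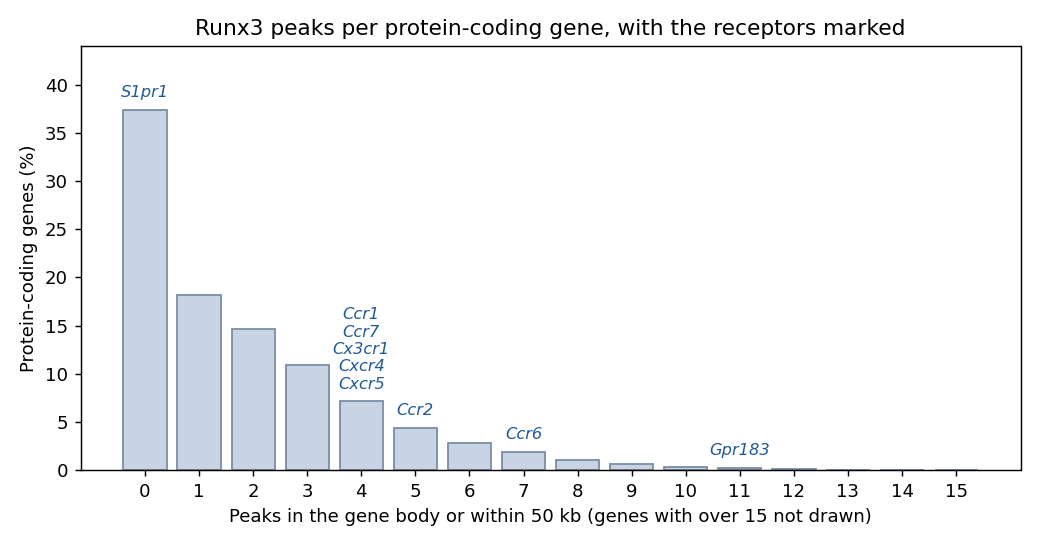
Share of the 22367 protein-coding genes (%) by the number of Runx3 peaks in the gene body or within 50 kb, with the receptors written above their bars and genes with over 15 peaks not drawn. The 8 bound receptors stand at 4 peaks or more, where 18.8% of protein-coding genes lie, and S1pr1 stands at 0.

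Scores of the receptor peaks were close to those of the whole list. The lowest was 1.62, the median 11.24 and the highest 89.22, the median of all peaks was 12.14, and 9 of 43 (20.9%) were in the upper quartile against 25.4% of all. Their median width was 384 bp against 406 bp. They were poorer in CpG, with a median observed to expected ratio of 0.237 against 0.316, and 47.4% against 50.7% of their bases were G or C. The promoters of the receptors, 500 bp on each side of the TSS, had a median CpG ratio of 0.176 against 0.549 for all protein-coding genes. The exceptions were Cxcr4, with 0.625, and S1pr1, with 0.584. Both lacked a peak within 1 kb of a TSS, but so did Ccr2, with 0.172, and Cxcr5, with 0.158.

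The RUNX hexamer TGTGGT was present on either strand in 30 of the 43 receptor peaks, or 69.8% (95% interval by Wilson's method from 54.9% to 81.4%, for counting error alone, as for the intervals that follow), and in 54.0% of all peaks. The paper reports a larger share of bound regions with the RUNX motif, from a de novo motif analysis. Only exact copies of TGTGGT were counted here, and the source of the difference was not tested. Windows of the same width 10 kb downstream held TGTGGT in 9 of the 41 cases that could be used, and in 30.9% of the cases over all peaks. For these windows downstream means towards higher chromosome positions, whatever the strand of the gene. The hexamer was more frequent in peaks with higher scores. Of the 20 receptor peaks at or above the list median score 19 held it (95%, interval 76.4% to 99.1%), and of the 23 below it 11 did (47.8%, interval 29.2% to 67.0%). Among all peaks the shares were 60.1% and 47.9%. All 9 receptor peaks in the upper quartile held TGTGGT, against 65.0% of all peaks in that quartile. The receptor peaks at or above the list median were also wider, the median width being 516.5 bp, and 296 bp below it. In the central 200 bp the hexamer was found in 13 of the 20 and in 10 of the 23. These were 53.5% of the receptor peaks, and 41.8% of all peaks held it in this part. Of the 9 in the upper quartile 7 held it there, against 47.1% of all such peaks. The exceptions were the strongest Ccr6 peak and the Gpr183 peak scoring 36.14.

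In the receptor peaks with TGTGGT the hexamer nearest the centre lay 1 to 205 bp from it with a median of 52 bp, and 15 of these 30 peaks held it within 50 bp. Over all peaks with the hexamer the median was 45 bp, and 54.4% held it within 50 bp. Several copies were found in 9 receptor peaks (20.9%), against 18.5% of all peaks. In total 42 copies were counted, 11 of them at Gpr183 and 9 at Ccr6.

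Other motifs were searched on both strands as well. The ETS core GGAAGT, shared by sites of Spi1 and its relatives in myeloid cells, was in 28 receptor peaks, or 65.1% (interval 50.2% to 77.6%), against 52.8% of all peaks and 17.1% of the windows downstream of the receptor peaks. It accompanied TGTGGT in 21 peaks, without sharing a base with it, and was in 7 of the 13 receptor peaks without TGTGGT. The AP-1 site TGANTCA was in 9 receptor peaks (20.9%) and in 13.2% of all peaks. The RBPJ core TGGGAA was in 14 (32.6%) and in 35.2% of all peaks, and overlapped TGTGGT in 1 of them. The IRF site GAAANNGAA was in 5 (11.6%) and in 14.7% of all peaks. TGACGT, the hexamer tied to zDC in the study, was in 2, at Ccr2 and Ccr6 (4.65%, interval 1.28% to 15.5%), and in 11.0% of all peaks. Except for the ETS core and TGTGGT the receptor windows downstream held these motifs at shares inside the intervals of the peaks.

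**Figure D4:**
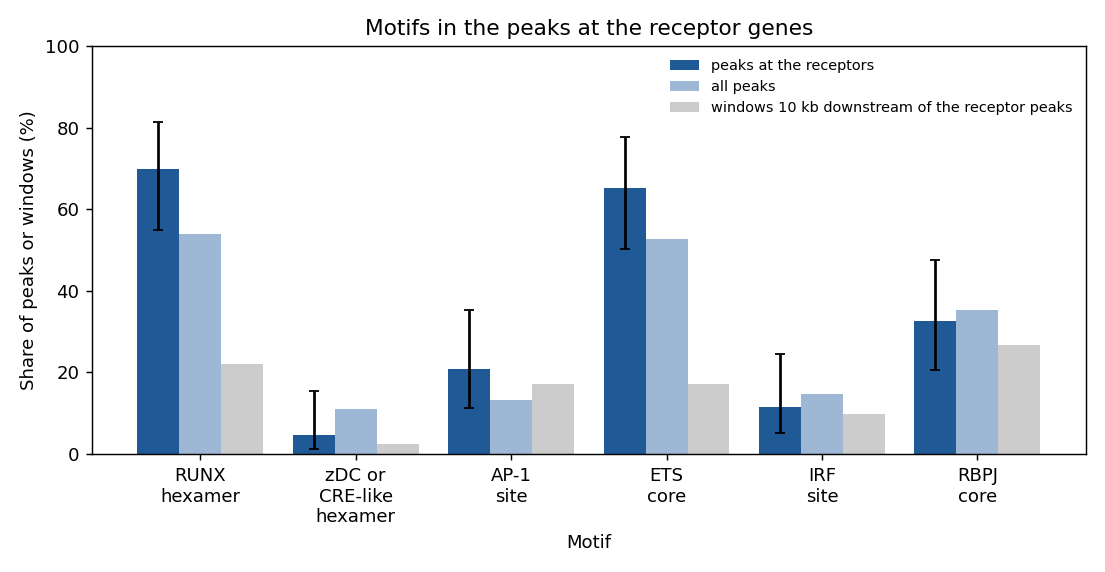
Share (%) of the 43 receptor peaks, of all 15121 peaks and of 41 windows 10 kb downstream of receptor peaks (towards higher chromosome positions) that hold each motif, with Wilson 95% intervals on the receptor peaks. The RUNX hexamer (69.8%) and the ETS core (65.1%) are the most frequent in receptor peaks.

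The remaining genes of the migration pathways were counted by the same rule, from lists set by the role of the genes. These lists were written with earlier results of these data known. Of the other 17 chemokine receptor genes, 15 had a peak (88.2%, against 62.6% of all protein-coding genes). Only 3 had 4 or more, namely Ccr8, Ccrl2 and Xcr1 with 4 each, and 18.8% of all protein-coding genes had as many. The median was 3 peaks. Ccr3, Ccr8 and Ccr1l1 neighbour the receptors above, and every peak counted for them was also counted for Ccr1, Ccr2 or Cx3cr1. Ccr4 and Ackr3 had no peak. Of 12 other genes of the sphingosine 1-phosphate and oxysterol pathways 10 had a peak (83.3%), with 5 each at S1pr2, a receptor, and Spns2, an exporter of the lipid, and 4 each at Sphk2 and Hsd3b7. S1pr3 and Cyp7b1, an enzyme of oxysterol synthesis, had none.

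Among these lists the signalling genes below the receptors had the highest median. A peak was found at 22 of 23 (95.7%), against 62.6% of all protein-coding genes, and the median was 5 peaks against 1. Elmo1 had 13 peaks, 12 of them in the gene body, Pik3r5 had 10, and Rac2 and Vav1 had 8 each. These genes act on the actin cytoskeleton or on PI3-kinase below G protein-coupled receptors. Only Rgs16, an inhibitor of G protein signalling, had none. Of 10 receptors for other chemoattractants 9 had a peak, with 8 at C5ar1, 7 at Ptafr and 6 at C3ar1. The chemokines themselves had the lowest median, 0. Of 11 ligands of the receptors 5 had a peak, or 45.5%, with 6 at Ccl5, 4 at Ccl3, 3 at Cx3cl1 and 2 each at Ccl2 and Ccl7. Ccl12, Ccl19, Ccl20, Ccl21a, Cxcl12 and Cxcl13 had none, while a peak was found at their receptors Ccr2, Ccr7, Ccr6, Cxcr4 and Cxcr5. Ccr2 is also the receptor for Ccl2, which did have peaks. Differences between the lists were not tested, and window lengths, which grow with gene length, were not compared between them.

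**Figure D5:**
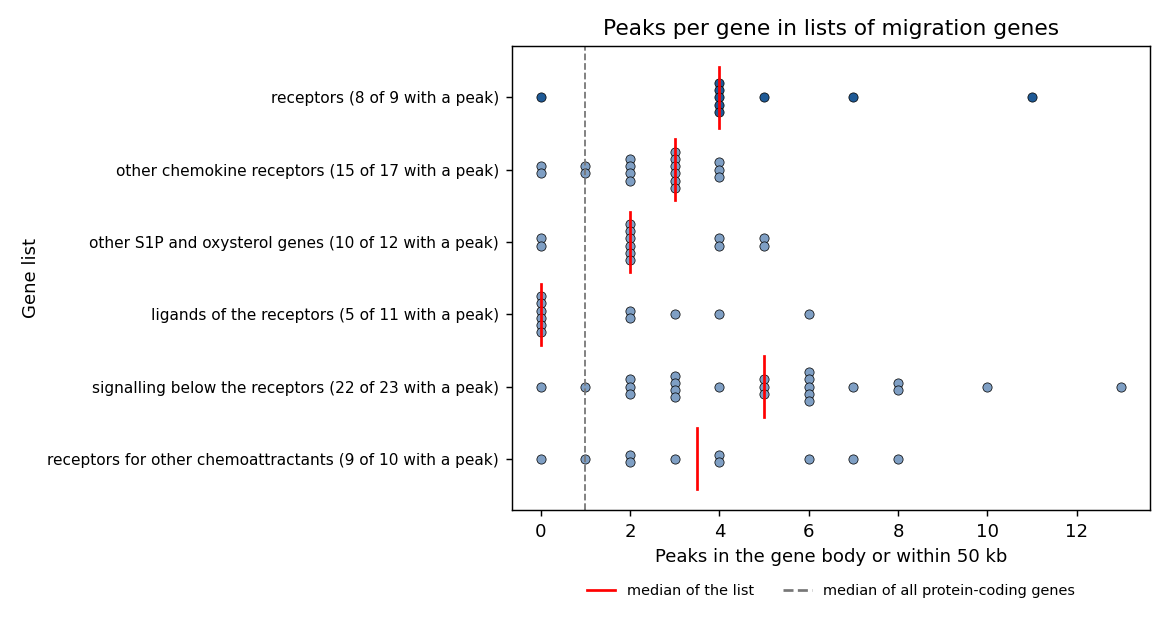
Runx3 peaks in the gene body or within 50 kb for each gene (points) of 6 lists of migration genes, with the median of each list in red and that of all protein-coding genes as a broken line. The 9 receptors have a median of 4 peaks, the signalling genes 5 and the ligands 0.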

How the data were processed

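Reads of 50 bp from DNA fragments of about 300 bp were aligned uniquely to mm9 with bowtie, and the authors called peaks with MACS2 in 1 run on the pooled samples. The submitters' processing notes also name CASAVA 1.8. The deposited list gives a start, an end and a MACS2 score for each peak, and the scale of the score, the threshold and the handling of duplicate reads are not given in the sources used here. Unique alignment can lower counts in stretches that related receptor genes share, which was not tested.

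Positions are 1-based on mm9, whose sequence (NCBIM37) and GENCODE M1 genes were used, on chromosomes 1 to 19, X and Y for the background. Motifs were searched in whole peaks. Downstream windows that overlapped a peak or held unsequenced bases were left out. Named genes were all receptors with all their peaks, the genes of the nearest TSS, and the 3 genes with the most peaks in each further list, with ties, and genes without a peak. The latter, beyond their number, were named after their counts were seen. Not every gene that this rule names is reported here. Ccl2 and Ccl7 were named in addition, as the remaining ligands with a peak. The members and lists were chosen with earlier results of these data known. The counting and the motif search were checked on simulated data. Python 3.11.15, numpy 2.4.6, pandas 2.3.3, scipy 1.17.1 and matplotlib 3.10.9 were used.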

Additional observations from a re-analysis of the deposited data

How the results depend on the processing

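The number of receptors with a peak was 8 and stayed between 6 and 9 under every alternative. It was 9 within 100 kb, which adds S1pr1 and where 72.1% of protein-coding genes have a peak, and 8 within 10 kb, where 43.4% do. The 43 peaks became 18 within 10 kb, 12 in the gene body only, 20 among the peaks scoring no less than the median of the list, 9 from its upper quartile upward and 24 when the nearest protein-coding TSS had to be that of the receptor. The nearest TSS setting kept the limit of 50 kb, so the more distant peak nearest to S1pr1 was not counted. The 30 peaks with TGTGGT became 13, 9, 19, 9 and 17 under the same settings, which keep fewer peaks by construction. Within 100 kb, by any base of the peak, with peaks closer than 300 bp joined and with regulatory domains from 5 kb upstream to 1 kb downstream of the TSS and extended by up to 1000 kb, there were 62, 43, 42 and 39 peaks. The shares with TGTGGT were 61.3%, 69.8%, 69.0% and 66.7% in that order. The 62 and its share count a peak once for each receptor within reach. The Ccr2 peaks centred 45629 and 33345 bp upstream of the TSS also lay within 100 kb of Ccr1, and so entered the counts of both receptors. TGTGGT or TGCGGT was in 32 peaks, and TGTGGT in the 200 bp around the centre in 23 (53.5%, against 41.8% of all peaks). Within 10 kb the peaks numbered 4 at Ccr6, 3 each at Cx3cr1 and Gpr183, 2 each at Ccr2, Ccr7 and Cxcr5 and 1 each at Ccr1 and Cxcr4. By nearest TSS, within 50 kb, they numbered 5 at Ccr6, 4 each at Cxcr4 and Gpr183, 3 each at Ccr7 and Cx3cr1, 2 each at Ccr2 and Cxcr5 and 1 at Ccr1. Within 100 kb Gpr183 had 17. No paired analysis was possible because the peaks were called once on pooled samples, and leaving out a replicate was not possible for the same reason.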
